A study of Zea mays with 2 samples.

Results

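The loci described here are 371 highly expressed nuclear loci that lie below the most abundant transcripts of the maize kernel. They were selected on their measured level. A locus was a chromosome position in the deposited tables, and it was kept when it lay on chromosomes 1 to 10, had exactly 1 row in each library, spanned at least 1000 bp and less than 20000 bp, and had a mean FPKM of the 2 libraries of at least 100 and below 1000. The 371 loci are 1.75% of the 21247 loci that met the span and row conditions at any level, and the tables list 34022 positions in all. FPKM counts fragments per kilobase of exon and scales them to the mapped fragments of the library, so it is a level per length.

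The study knocked down ZmMADS47, a MADS-box transcription factor, in maize (Zea mays) kernels. RNA-seq was available as 1 table for wild-type (WT) kernels and 1 table for ZmMADS47 RNAi kernels, both at 15 days after pollination (DAP). According to the methods, both pools came from selfed heterozygous plants of RNAi line 3, kernels without the transgene forming the WT pool and kernels with it the RNAi pool. The transgene carries a hairpin fragment of ZmMADS47 behind the promoter of the 16-kD γ-zein gene, which is active in endosperm, in plants backcrossed to the inbred W22. A single transgenic line and pooled kernels thus stand behind every value. The labels name both the whole kernel and the endosperm as the source. The positions are those of the B73 assembly AGPv2, with starts counted from 1, and the tables pair no position with a gene name, so neither gene functions nor tissue markers could be checked.

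Starch and storage proteins fill the endosperm of a maize kernel at this stage. The zeins, its main storage proteins, are encoded by gene families whose transcripts are extremely abundant, and many of them are activated by Opaque2, a bZIP factor with which ZmMADS47 interacts. Below such transcripts a filling seed usually carries a broad layer of strongly expressed genes for translation, primary metabolism, protein folding and cell structure. The loci here were taken from that range of levels, but which of these roles each one has is not known from the files.

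The series text mentions replicate profiling, and whether a table combines several sequenced samples is not known. Each was treated as 1 library. With 1 library per genotype, no difference below has a replicate check and no test between genotypes was made. The methods give the reads per sample in round terms, but the fragments behind a locus could not be recovered from the values, so no counting error was computed. In pooled kernels, fewer cells of a type and less RNA per cell cannot be told apart. All listed values added up to 1241764 FPKM for WT and 1102577 FPKM for RNAi, a ratio of 0.888. The locus chr1:17965514-17987077, which overlaps the published position of ZmMADS47 over 20745 of its 21564 bp, had an FPKM of 4.01 in the RNAi pool and 8.79 in the WT pool. Its span places it outside the 371 loci.

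Of all FPKM in the WT pool, 6.37% fell on the 371 loci, and in the RNAi pool 7.33% did. Their own sum moved less than their share, from 79159 FPKM in WT to 80820 FPKM in RNAi, a ratio of 1.02. The share was 1.15-fold higher in the RNAi pool, the ratio of 1.02 being divided by the ratio of the totals, 0.888. When the 105 loci of any span with a mean FPKM of 1000 or more were taken out of both totals, the share was 15.9% in WT and 15.7% in RNAi, so the direction of the share depended on those most abundant loci.

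Most of the loci stood near the lower limit of the range. The median of the mean FPKM was 157, the quartiles were 121 and 233, and the highest mean was 902. A mean FPKM of 100 to under 200 was found for 248 loci, 200 to under 500 for 95 and 500 to under 1000 for 28. The 37 most abundant loci held 29.4% of the members' FPKM in the WT pool and 27.6% in the RNAi pool. At least 100 FPKM was measured in each library for 320 loci. Of the others, 36 were under 100 in the WT pool and 15 were under 100 in the RNAi pool.

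The most abundant member was chr3:216414684-216424048, with 791 FPKM in the WT pool and 1014 FPKM in the RNAi pool. It was the only member at 1000 FPKM or more in the RNAi library, and 4 others reached that level in WT. Next came chr2:54763050-54764823 with 1035 FPKM in WT and 735 FPKM in RNAi, a ratio of 0.71 that lies just above the lower fold limit used below. The third, chr1:258363413-258366763, had 1044 FPKM in WT and 570 FPKM in RNAi. A pair on chromosome 10 followed. There chr10:4165442-4166593 had 818 FPKM in WT and 773 FPKM in RNAi, and chr10:4673445-4676086 had 824 FPKM in WT and 748 FPKM in RNAi. Of these 5 loci, 1 was higher and 4 were lower in the RNAi library.

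RNAi/WT ratios were compared as deposited and after division by 1.05, the median ratio of the 8625 loci with at least 10 FPKM in both libraries. As deposited, the members' ratios had a median of 1.06 with quartiles of 0.955 and 1.16, and 249 of 371 were above 1. After division by the median ratio the quartiles were 0.908 and 1.10, with 194 loci above 1 and 177 below. Of the 371 loci, 191 (51.5%) then lay within 10% of the median ratio and 302 (81.4%) within 20% of it. These shares were 46.9% and 76.6% for loci at 10 to 100 FPKM and 33.7% and 58.4% for all 16498 loci of the same span and row conditions with a mean of at least 1 FPKM, so the members were near the class just below them.

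The study called genes by fold limits of 1.4 and 0.71 together with a limit on the P value, which was not applied here. At these fold limits alone, 18 members (4.85%) lay above and 18 (4.85%) lay below as deposited. The same limits took in 14.0% above and 10.4% below among the 16498 loci of the same span and row conditions whose mean FPKM reached 1. That background is set by weak loci. Among the 6376 loci with a mean FPKM of 10 to under 100, 5.11% lay above and 3.43% below, shares near those of the members. After division by the median ratio, 14 members (3.77%) lay above and 22 (5.93%) below, against 11.4% and 12.3% of the 16498 loci and 3.36% and 4.75% of the loci at 10 to 100 FPKM. Scaling both libraries to the same summed FPKM instead gave 39 (10.5%) above and 14 (3.77%) below, against 23.8% and 6.93% of the 16498 loci. By that scaling 73.6% of the members past the limits were higher, compared with 38.9% after division by the median ratio and equal numbers as deposited. The direction that holds more members thus changed with the scaling.

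**Figure D1:**
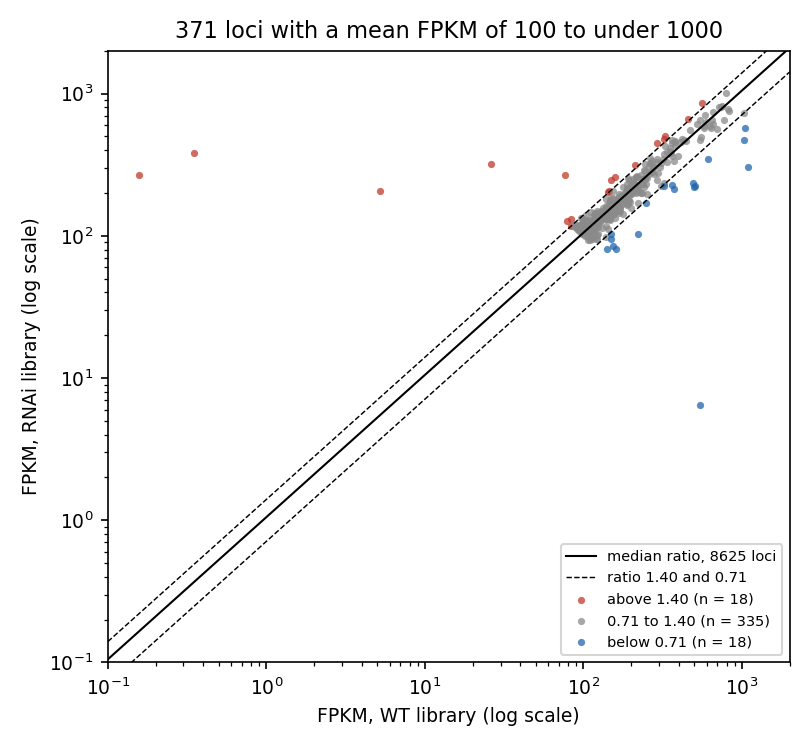
FPKM in the WT library (x axis, log scale) against FPKM in the RNAi library (y axis, log scale), 1 point per locus for the 371 loci. The solid line marks the median ratio of 8625 loci and the dashed lines ratios of 1.4 and 0.71. Most points follow the solid line. The 7 loci more than 3-fold apart, 5 higher and 2 lower in the RNAi pool, stand away from it.

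A few loci differed between the libraries by far more than the rest. A limit of 3-fold was picked for them with the values already in view. By it, 7 of 371 loci (1.89%) were more than 3-fold apart, 5 of them higher and 2 lower in the RNAi pool. Of these, 6 were under 100 FPKM in the library where they were low and entered the range through the other library, so their share is given with no comparison. The next ratios inside were 1.66 at the upper end and 0.439 at the lower end.

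The highest ratio was that of chr1:289544886-289548243, with 0.156 FPKM in the WT pool and 269 FPKM in the RNAi pool. At chr4:124564239-124566900 it was 0.348 in WT and 381 in RNAi. Both loci were thus far below 1 FPKM in the WT pool and well inside the strongly expressed range in the RNAi pool. The fold of such a pair, 1718 and 1095 here, rests on a denominator whose counting error was not computed. The nearest listed neighbours lay 13382 bp and 19136 bp away and were weak in both libraries, at 0.384 and 0.436 FPKM in WT and 0.499 and 0.961 FPKM in RNAi.

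Chromosome 5 carried another 2 of these loci. At chr5:169171132-169181381 the FPKM was 5.21 in the WT pool and 206 in the RNAi pool, a ratio of 39.5. At chr5:192435127-192438760 it was 26.1 in WT and 318 in RNAi, a ratio of 12.2. The neighbour at 10 FPKM or more nearest to the former, chr5:169230917-169231972, had the opposite difference, with 75.6 FPKM in WT and 21.4 FPKM in RNAi at a distance of 49535 bp. The last of the 5 loci, chr2:62447166-62448823, had 76.7 FPKM in WT and 267 FPKM in RNAi, a ratio of 3.48.

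In the other direction, chr4:44177884-44193063 had 542 FPKM in the WT pool and 6.42 FPKM in the RNAi pool, a ratio of 0.0118. At chr3:222471157-222475416 the FPKM was 1094 in WT and 302 in RNAi, a ratio of 0.276. The chromosome 4 locus was strongly expressed in 1 pool and weak in the other, whereas the chromosome 3 locus was above 100 FPKM in both. The locus nearest to the chromosome 4 member with at least 10 FPKM in both libraries, chr4:44061937-44064386, lay 113497 bp away with a ratio of 1.07.

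The other 16 members below 0.71 had ratios from 0.439 to 0.690 and mean FPKM from 111 to 807. The lowest was chr1:201475767-201478082, with 499 FPKM in the WT pool and 219 FPKM in the RNAi pool. Its neighbour only 29 bp away, chr1:201478112-201483421, had 41.5 FPKM in WT and 39.1 FPKM in RNAi, so the adjoining loci differed in ratio. At chr8:132717642-132719231 the FPKM was 502 in WT and 223 in RNAi, and the nearest listed locus was 156331 bp away. At chr1:287062939-287065014 it was 1030 in WT and 470 in RNAi. Ratios of 0.470 to 0.548 were found at 5 further loci that the naming rule takes in. Of these, chr5:25510983-25512470 had 220 FPKM in WT and 104 FPKM in RNAi, chr10:148424594-148425826 had 161 and 80.1 FPKM, and chr8:117288131-117293563 had 154 and 84.5 FPKM. The remaining ones were chr1:258363413-258366763, given above, and a chromosome 6 locus described with its neighbours below.

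The other 13 members above 1.4 had ratios from 1.41 to 1.66, a narrower range than on the lower side. The highest of them was chr9:73351550-73358330, with 157 FPKM in the WT pool and 260 FPKM in the RNAi pool. It was followed by chr5:144574028-144575504 with 149.9 FPKM in WT and 248 FPKM in RNAi. At chr4:5007502-5013114 the FPKM was 79.1 in WT and 127 in RNAi, at chr1:278183921-278192926 it was 84.0 in WT and 132 in RNAi, and at chr1:273983252-273987146 it was 289.5 in WT and 451 in RNAi. Under 100 FPKM in the WT pool were 8 of all 18 members above 1.4, and these entered the range through their RNAi value. Likewise 5 of the 18 members below 0.71 were under 100 FPKM in the RNAi pool and entered it through their WT value.

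The 36 members past the limits carried a large part of both the gain and the loss in summed FPKM. They were picked for their ratio, so a large part was built into the choice. Of them, 8 above 1.4 and 5 below 0.71 were under 100 FPKM in 1 library and entered the range through the other. Over the 249 loci that were higher in the RNAi pool the gain was 8425 FPKM, of which 34.3% came from the 18 loci above 1.4. Over the 122 that were lower the loss was 6765 FPKM, of which 64.1% came from the 18 loci below 0.71. The 335 loci between the limits gained 5538 FPKM and lost 2429 FPKM, and their sum had a ratio of 1.05, the same as the median ratio. The net gain of all 371 loci, 1660 FPKM, was the sum, as deposited, of a net gain of 2888 FPKM above 1.4, a net gain of 3109 FPKM between the limits and a net loss of 4336 FPKM below 0.71.

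**Figure D2:**
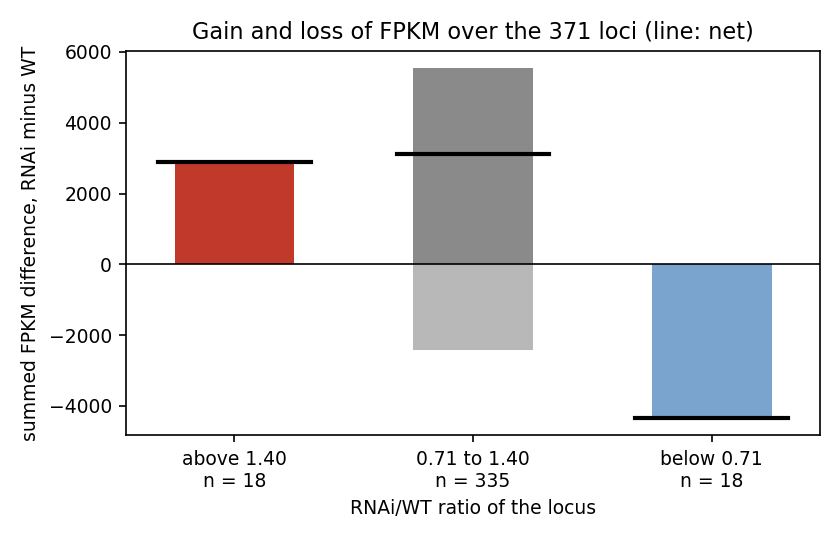
Summed FPKM difference, RNAi minus WT (y axis, FPKM), over the members above 1.4, between the limits and below 0.71 (x axis). The direction of the outer classes was fixed by the choice of their members by ratio. Bars above 0 add the loci higher in the RNAi pool, bars below 0 those lower, and the black lines give the net, which was 2888, 3109 and -4336 FPKM.

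Within the range, the ratio of summed FPKM was lower for more abundant loci. It was 1.08 for the 248 loci at 100 to under 200 FPKM, 1.01 for the 95 at 200 to under 500, 0.935 for the 28 at 500 to under 1000, and 0.728 for the 16 loci at 1000 FPKM or more under the same span and row conditions. The median ratios were 1.06, 1.06, 1.00 and 0.871. Below 0.71 lay 2.42%, 9.47%, 10.7% and 31.2% of the loci in these classes, that is 6, 9, 3 and 5 loci. Above 1.4 lay 4.44%, 5.26%, 7.14% and 12.5% of them, that is 11, 5, 2 and 2 loci. As deposited, the share past the limits was thus higher on both sides in the more abundant classes. After division by the median ratio, 3.23%, 5.26%, 3.57% and 12.5% lay above and 2.82%, 11.6%, 14.3% and 31.2% below. Only the lower side then kept the order. Among the 16498 loci with a mean of at least 1 FPKM, 14.0% lay above and 10.4% below as deposited. Without the loci more than 3-fold apart the ratios of the sums were 1.04, 1.03, 0.975 and 0.775, which kept the order. The 2 upper classes hold few loci, and the members' median ratio of 1.06 equals that of the 6376 loci at 10 to 100 FPKM, also 1.06.

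**Figure D3:**
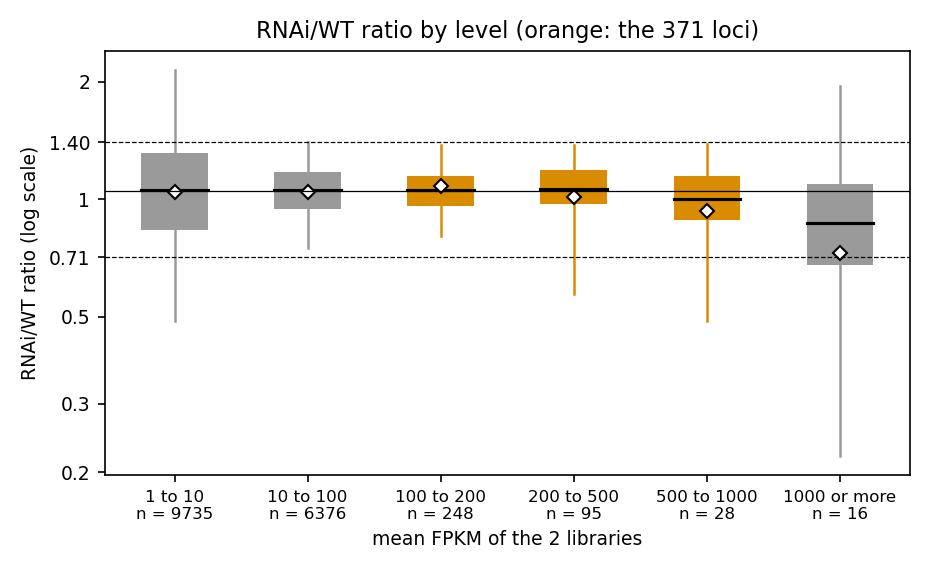
RNAi/WT ratio as deposited (y axis, log scale) in classes of mean FPKM (x axis), with the classes of the 371 loci in orange. Boxes span the quartiles, black bars are medians, lines run from the 5th to the 95th percentile over loci, and diamonds are ratios of summed FPKM, which go from 1.08 to 0.935 across the orange classes. The solid line is the median ratio and the dashed lines are 1.4 and 0.71.

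Over the 371 loci Pearson's r of log2 FPKM was 0.546 and Spearman's rho was 0.851. Leaving out the 7 loci more than 3-fold apart, which were picked for their difference and had to raise both values, gave 0.934 and 0.913 over 364 loci. These are descriptions across loci of the same 2 libraries, and the choice by mean FPKM narrows the range they cover. The quartiles of the log2 ratio were 0.28 apart for the members, 0.31 apart for loci at 10 to 100 FPKM, 0.66 apart for loci at 1 to 10 FPKM and 0.69 apart for the 16 loci at 1000 FPKM or more. Within the members they were 0.26 apart at 100 to under 200 FPKM, 0.29 apart at 200 to under 500 and 0.38 apart at 500 to under 1000, so the more abundant classes were wider.

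The members lay on all 10 chromosomes. Chromosome 1 held 61, chromosome 5 held 46, chromosome 8 held 45 and chromosome 6 held 40, and the fewest, 24, were on chromosome 10. Relative to the compared loci of each chromosome, whose mean FPKM was 1 or more, members were densest on chromosome 6 with 2.98 per 100 and sparsest on chromosome 2 with 1.56 per 100, where chromosomes 2 and 3 each held 30 members. Chromosome 6 thus carried 10.8% of the members and 8.13% of the compared loci.

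The median ratio of the members was between 1.04 and 1.09 on chromosomes 1 to 9 and was 0.980 on chromosome 10. The compared loci of chromosome 10 had a median of 1.03, and those of the other chromosomes had medians from 1.05 to 1.07. On chromosome 10 none of the 24 members was above 1.4 and 3 were below 0.71. They include chr10:1725712-1731899, with 362 FPKM in the WT pool and 227 FPKM in the RNAi pool, and chr10:81169650-81173126, with 247 FPKM in WT and 169 FPKM in RNAi. Chromosome 9 had 2 members above 1.4, none below 0.71 and a lowest ratio of 0.875. Chromosomes 3, 6 and 7 also had 0 members above 1.4, and chromosome 2 had 0 below 0.71. Over all chromosomes 4.85% of the members lay above and 4.85% below, against 14.0% and 10.4% of the 16498 compared loci. The compared loci past the limits were not counted by chromosome. With so few members past the limits on each chromosome, these counts describe single loci. The ratio of the members' summed FPKM was highest on chromosome 5, at 1.14, and lowest on chromosome 10, at 0.944.

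**Figure D4:**
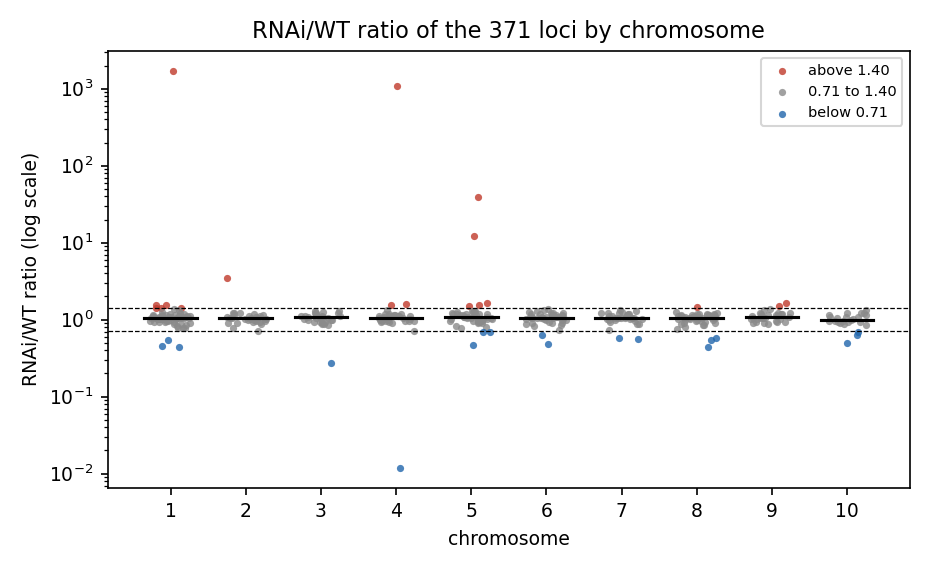
RNAi/WT ratio as deposited (y axis, log scale) of the 371 loci by chromosome (x axis), 1 point per locus with sideways scatter for legibility. Black bars are medians over loci, from 0.980 on chromosome 10 to 1.09 on chromosome 9, and dashed lines are 1.4 and 0.71.

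Along the chromosomes the members were spread much like the compared loci. Each chromosome was divided into 10 equal parts between its first and last listed locus. The outer 2 parts at each end together held 58.0% of the members and 58.8% of the 16498 compared loci, and the last part alone held 19.7% and 20.1%. In the first part the members were fewer, at 11.9% against 14.3%, and in the second part they were more, at 12.4% against 9.5%. The median ratio was 1.05 for the 215 members in the outer parts, 1.07 for the 156 members further inside and 1.11 for the 32 members in the middle 2 parts, where the compared loci had 1.06. Of the outer members 8 were above 1.4 and 11 below 0.71, and of the inner ones 10 were above and 7 below. Of the loci at 10 to 100 FPKM, 187 of 3879 outer ones were above and 133 below. Of the 2497 inner ones in that class, 139 were above and 86 below. In both parts more loci were thus above than below in that class, and the same held for the compared loci. The members' counts are too small to show that their outer and inner parts differ.

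**Figure D5:**
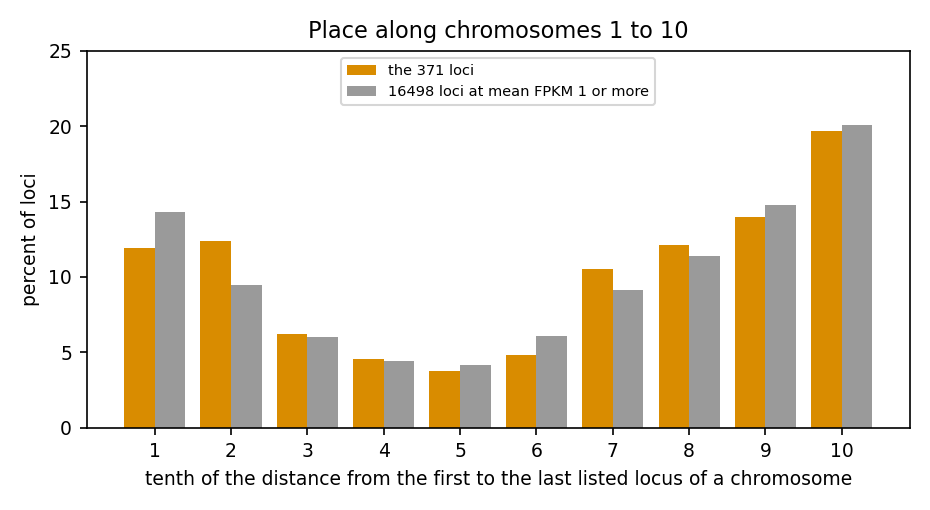
Percent of loci (y axis) in each of 10 equal parts of the distance from the first to the last listed locus (x axis), pooled over chromosomes 1 to 10, for the 371 loci and for the 16498 loci whose mean FPKM was 1 or more. Both sets are densest in the last part, at 19.7% and 20.1%, and sparse in the middle.

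The 371 loci were seldom close to each other. Other loci of the same FPKM range, outside the span and row conditions, were not grouped. When members separated by at most 100 kb were joined, 338 stayed single, and 33 formed 15 pairs and 1 group of 3. The gaps between the first 2 members of these groups ran from 313 to 90832 bp. In 11 of the 16 groups the highest ratio was under 1.2 times the lowest, and in 8 of 16 all members lay on the same side of the median ratio. Of all 371 members, 194 lay above the median ratio, 177 below and 302 within 20% of it. Members far apart were not compared in this way, so these counts do not show that neighbours are alike. The closest pair, between chr7:66528736 and chr7:66534719, had ratios of 1.17 and 1.04. The pair on chromosome 6 between 165631098 and 165707170 had nearly equal ratios, 1.17 and 1.14. The widest difference within any of the 15 pairs was 1.47-fold, on chromosome 4 between 175722072 and 175751055, where the ratios were 1.05 and 0.711.

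The group of 3 lay on chromosome 6 between 31566979 and 31650307. Its first member, chr6:31566979-31568811, had 488 FPKM in the WT pool and 233 FPKM in the RNAi pool, a ratio of 0.478. The second, chr6:31600613-31602126, had 234 FPKM in WT and 201 FPKM in RNAi, a ratio of 0.857. The third, chr6:31648456-31650307, had 394 FPKM in WT and 361 FPKM in RNAi, a ratio of 0.916. All 3 were lower in the RNAi pool and their spans were alike, at 1833, 1514 and 1852 bp. Their summed FPKM had a ratio of 0.712, the lowest of the 16 groups, and the highest was 1.17. Only this group held a member past the fold limits. Its nearest neighbour, chr6:31564100-31565614, lies 1364 bp from the first member and had 37.6 FPKM in WT and 46.6 FPKM in RNAi.

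Neighbouring loci of any level were usually close to the members. The median gap to the nearest listed locus was 6135 bp, against 4430 bp for loci at 10 to 100 FPKM. A gap of at most 1 kb was found for 78 members (21.0%), and 18 (4.85%) had no other listed locus within 100 kb. For loci at 10 to 100 FPKM these shares were 23.4% and 5.1%. The nearest listed locus had a median mean FPKM of 4.16 and was itself a member in 11 cases. A member thus usually lay beside a far weaker locus. This was not particular to the members, since the same median was 4.68 for loci at 10 to 100 FPKM. No 2 listed nuclear loci overlapped, so a member shared its position with no other entry.

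Most neighbours of the members past the limits were themselves between the limits. For the 18 members above 1.4, the nearest locus at 10 FPKM or more in both libraries had a median ratio of 1.02, with 0 above 1.4 and 2 below 0.71. For the 18 members below 0.71 that neighbour had a median ratio of 1.04, with 1 above 1.4 and 4 below 0.71. The 335 members between the limits had neighbours with a median of 1.07, of which 21 were above and 10 below. The median distance to these neighbours was 68340 bp, 117330 bp and 55357 bp. Among the 6376 loci at 10 to 100 FPKM under the span and row conditions, 5.11% lay above and 3.43% below. The neighbours were not held to those conditions. With 18 members on either side, the neighbour counts describe single loci. Among the members below 0.71, 4 had a neighbour that was also below 0.71. One was chr7:6356093-6357279, with 607 FPKM in the WT pool and 344 FPKM in the RNAi pool. Its neighbour 2043 bp away had a ratio of 0.519. Another was chr7:13844415-13850805, with 142 FPKM in WT and 81.2 FPKM in RNAi. Its neighbour 1191 bp away had 116 FPKM in WT and 70.7 FPKM in RNAi. The others of the 4 neighbours lay 215134 bp and 340152 bp away, with ratios of 0.541 and 0.570. Within 10 kb, 7 of the 18 members below 0.71 had such a neighbour. Apart from the chromosome 7 cases, these neighbours had ratios from 0.938 to 1.24.

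The members were shorter than the loci 1 step below them in level. Their median span, introns included, was 3280 bp with quartiles of 2295 and 4687 bp, against 4340 bp with quartiles of 2878 and 6432 bp at 10 to 100 FPKM. The span fell further within the range, from a median of 3318 bp at 100 to under 200 FPKM to 2733 bp at 500 to under 1000, and it was 1476 bp for the 16 loci at 1000 FPKM or more. A span of 2000 to under 5000 bp was found for 221 members (59.6%), and for 48.6% of the 16498 compared loci. Loci of 5000 to under 10000 bp made up 15.1% of the members and 24.1% of the compared loci. The median ratio was 1.02 for the 72 members under 2000 bp, 1.06 for those of 2000 to under 5000 bp, 1.06 for the 56 of 5000 to under 10000 bp and 1.02 for the 22 longer ones. The conditions on span cut this distribution at both ends.

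At the lower limit of the range, loci on both sides had similar values. Just inside the lower limit were chr3:218785554-218795824 with 107 FPKM in WT and 93.5 FPKM in RNAi, chr9:147166752-147170885 with 102 and 98.9 FPKM, and chr1:44191574-44193231 with 83.7 and 118 FPKM. Just outside it were chr4:77010143-77013775 with 97.5 and 102 FPKM, chr10:128864859-128868237 with 90.5 and 109 FPKM, and chr7:18139415-18148234 with 92.1 and 108 FPKM. At the upper limit the 3 members nearest inside are the 3 most abundant ones above. Nearest outside were chr6:156534704-156535855 with 1273 FPKM in WT and 1024 FPKM in RNAi, chr8:107003965-107014861 with 1337 and 1483 FPKM, and chr3:17438926-17441821 with 2475 and 524 FPKM. No locus under the same span and row conditions had a mean FPKM between 902 and 1148, so a slightly different upper limit would have chosen the same members.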

How the data were processed

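The authors deposited 1 table of FPKM values per genotype. According to the methods, reads were aligned to AGPv2 with TopHat and unique reads were normalized with Cufflinks 2.1.1, and Bowtie 0.12.2 appears in the processing notes of the submitters. These tables list only FPKM values above 0, 34453 for RNAi and 34959 for WT, by chromosome position. The only annotation at hand was on another assembly, so no names were assigned.

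Tables were joined by position. Ratios are plain RNAi/WT ratios with no pseudocount, divided in a second version by the median ratio of loci with the same number of rows and at least 10 FPKM in both libraries. With 1 library per genotype no test was run. Members, limits and lists were chosen with earlier results of these data known. Loci named singly are the 5 with the highest mean, the 10 highest and 10 lowest ratios, those next to the FPKM limits, and groups of 3 or more within 100 kb. Any other locus given was chosen after its values were seen. Counting and grouping steps were tested on simulated data. Python 3.11.15, pandas 2.3.3, numpy 2.4.6 and matplotlib 3.10.9 were used.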

Additional observations from a re-analysis of the deposited data

How the results depend on the processing

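No paired analysis was possible because only 1 library stands for either genotype. Counts past the limits (18 above, 18 below as deposited) moved by over 1.5 times in these settings. Scaling to the same summed FPKM gave 39 (10.5%) above, against 23.8% of the 16498 compared loci. Fold limits of 2 and 0.5 gave 5 (1.35%) above and 8 (2.16%) below. At least 100 FPKM in each library gave 10 (3.12%) above among 320 loci. A span of 300 bp or more gave 34 (7.64%) above and 35 (7.87%) below among 445 loci. Summing several rows gave 66 (11.9%) above and 30 (5.42%) below among 554 loci. Apart from the scaling, the share over all loci was not counted in these settings, so the shifts cannot be assigned to the members. Without the 7 loci more than 3-fold apart, a setting chosen after seeing the data, 13 were above and 16 below. That smaller move was fixed in advance, since 5 of the 7 loci lay above and 2 below. The median ratio (1.06) was 1.01 after division by the median ratio, 1.19 at the same summed FPKM, and 1.05 both at 100 FPKM in each library and with spans from 300 bp. The ratio of summed FPKM (1.02) was 0.971 after division by the median ratio, 1.15 at the same summed FPKM, 1.01 both at 100 FPKM in each library and with spans from 300 bp, and 1.11 with several rows summed, so whether the sum rose or fell depends on the scaling. The share in WT (6.37%) was 6.38% of the total over chromosomes 1 to 10, 5.95% at 100 FPKM in each library, 8.01% with spans from 300 bp, 9.75% with several rows summed and, in settings chosen after seeing the data, 15.9% of the total without loci at a mean of 1000 or more and 6.23% without the 7 loci. The share in RNAi (7.33%) was 6.76%, 9.15%, 12.2%, 15.7% and 7.17% in the same settings, leaving out the first. Over chromosomes 1 to 10 it went only from 7.330% to 7.331%, and the share in WT from 6.375% to 6.376%. Members in groups numbered 33 with gaps up to 100 kb, 19 with 50 kb and 51 with 200 kb. The cause of these shifts was not tested beyond the larger sets of loci that the span and row settings admit. A pseudocount of 1 changed no count. Fragments per locus are not known, so weak denominators limit the largest folds.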

Other observations

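The values in this part were looked at after the results above were known, and no explanation was tested. Loci of the same FPKM range and span that hold several rows, which the choice of members leaves out, lay above the upper limit more often than the 371 loci. Of 183 such loci with the same number of rows in both libraries, 48 (26.2%) had a summed ratio above 1.4 and 12 (6.56%) had one below 0.71. Among the members 4.85% lay above and 4.85% below. Loci with several rows at other levels were not counted, so this may not be particular to the range. The median of their ratios was 1.10, and the ratio of their sums was 1.27, against 1.02 for the members. Of all FPKM they made up 3.37% for WT and 4.82% for RNAi. A further 46 loci of the range had different numbers of rows.

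Another 2 loci of the range and span are listed in a single library. The locus chr3:72936658-72939659 had 433 FPKM in the RNAi pool and is not listed for WT, and chr7:44699713-44701658 had 601 FPKM in the WT pool and is not listed for RNAi.

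Members past the limits recurred in a stretch of chromosome 1 and in one of chromosome 5. Between 258363413 and 289548243 on chromosome 1 (31.2 Mb), 5 of 13 members were past them, 3 above and 2 below, including the highest ratio of all. Between 144574028 and 192438760 on chromosome 5 (47.9 Mb), 5 of 13 members were past them, 4 above and 1 below, including 2 loci that were more than 3-fold higher. Of the loci at 10 to 100 FPKM, which were not used to pick these stretches, 11.5% of 157 and 6.88% of 160 were past the limits there, against 8.55% of 6376 on all chromosomes. Their median ratios in the stretches were 1.06 and 1.03. With the members picked by their position and ratio, no test of either stretch was made.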
